A study of Mus musculus with 12 samples.

Results

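The genes described are 6 lipocalins of the mouse epididymis, Lcn2, Lcn5, Lcn6, Lcn8, Lcn9 and Lcn10, chosen by name from the 22021 genes of the caput transcriptome at 13 months. They hold 7 of its 28344 transcript rows, with 2 rows for Lcn5 and 1 for each of the others. The study set wild-type (WT) C57BL/6 mice beside C57BL/6 mice lacking Gpx5, the secreted glutathione peroxidase of the epididymis (genotype Gpx5-/-, called KO). Each genotype at 13 months was a pool of 7 mice and gave 1 caput transcriptome library, and small RNAs of 18 to 40 nt were sequenced from caput, corpus, cauda and testis at 13 months and from caput at 2 months, again with 1 library per group. Caput and cauda had been punctured and left in buffer to let spermatozoa out, whereas corpus and testis were taken directly. With 1 pooled library per group there is no replicate spread and no test between genotypes. The differences below compare libraries, and the intervals at 95% cover counting error only. In bulk tissue, fewer cells of a type and less RNA per cell cannot be told apart.

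Lipocalins are small, mostly secreted proteins that fold into a beta-barrel around a pocket for a hydrophobic ligand such as a retinoid, a steroid or a siderophore. The principal cells of the epididymal caput secrete several of them into the lumen, where they bathe the maturing spermatozoa, and most of the genes lie side by side on 1 chromosome. Androgen and factors coming from the testis are known to keep many caput secretory genes on.

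Libraries held 14348655 reads in WT and 13929327 in KO by the totals that the deposited values carry. The targeted gene, Gpx5, was at 8474 RPKM (reads per kilobase of transcript per 1000000 reads) in WT and 918 RPKM in KO, so it was lower in the library labelled KO but not at 0; the labels do not say which exons were deleted. The caput label held in both libraries: all 8 markers of caput and initial segment epithelium were measured above 1 RPKM, with sums of 9962 RPKM in WT and 23338 RPKM in KO, and all 8 were higher in KO, 6 of them by at least 1 on the log2(RPKM + 1) scale. All 6 spermatid and sperm markers were lower in KO, and their summed level was 9545 RPKM in WT and 138 RPKM in KO. All 5 Leydig cell markers were lower too, with sums of 342 and 11.6 RPKM; none of the markers of either list was at 0. The part of these testis transcripts of the WT library in the lipocalin differences was not tested.

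Lcn2, the siderophore-binding lipocalin of the innate response (transcript NM_008491), was the most abundant of the 6. It stood at 1846 RPKM in WT and 3889 RPKM in KO. These levels ranked it 12 of all genes in WT and 7 in KO. All 8 markers of neutrophils, which store LCN2 protein, were under 1 RPKM in both libraries, with sums of 1.85 RPKM in WT and 1.20 RPKM in KO and 1 marker at 0 in both.

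Lcn5 encodes the epididymal retinoic acid-binding protein. Its main transcript, NM_007947, was at 770 RPKM in WT and 2294 RPKM in KO, resting on 7682 and 22209 reads. The other transcript, NM_001042630, was at 350 RPKM in WT and 1006 RPKM in KO, from 4586 and 12789 reads. Both rows were higher in KO by nearly the same factor, and the first exceeded the second 2.20-fold in WT (2.12 to 2.28) and 2.28-fold in KO (2.23 to 2.33). How reads that fit both transcripts were divided is not given in the sources used here, so the split between the rows is uncertain; their sum gave a log2 difference of 1.56 against 1.57 for the main row.

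Lcn8, a lipocalin secreted by the caput, was at 1162 RPKM in WT and 2259 RPKM in KO. Lcn9, another lipocalin of the epididymis, was at 807 RPKM in WT and 1704 RPKM in KO. With Lcn2 and Lcn5 these make up the abundant members, all at 770 RPKM or more in WT.

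Lcn10 and Lcn6, which lie next to each other on the chromosome, were the less abundant ones. Lcn10 was at 174 RPKM in WT and 414 RPKM in KO. Lcn6, whose human counterpart is known from the sperm surface, was at 42.7 RPKM in WT and 99.6 RPKM in KO, from 446 and 1010 reads. The most abundant member exceeded the least abundant one 43.2-fold in WT and 39.0-fold in KO.

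**Figure D1:**
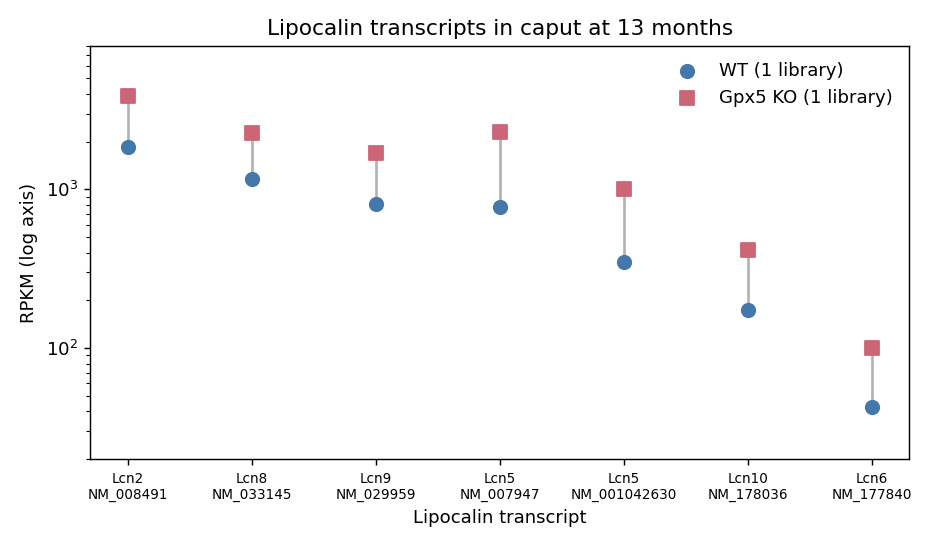
RPKM (log axis) of the 7 transcript rows of the 6 lipocalins in the WT library (blue circles) and the Gpx5 KO library (red squares), 1 library each, joined by a grey line per row. Each square lies above its circle, and the gap is widest for the 2 rows of Lcn5.

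By the row with the highest mean of each gene, the order of the levels differed between the libraries by the move of 1 gene, Lcn5. In WT it ran Lcn2, Lcn8, Lcn9, Lcn5, Lcn10, Lcn6, and in KO Lcn5 stood after Lcn2. The ratio of Lcn5 to Lcn8, which is taken within a library and does not depend on how libraries are scaled, was 0.663 in WT (0.644 to 0.683) and 1.02 in KO (0.996 to 1.03). For these rows the KO levels of Lcn5 and Lcn8 do not differ beyond counting error. With both Lcn5 rows summed, Lcn5 came to 1120 RPKM in WT, between Lcn8 and Lcn9, and to 3300 RPKM in KO, above the 2259 RPKM of Lcn8. The ratio of Lcn5 to Lcn9 was 0.954 in WT (0.926 to 0.983) and 1.35 in KO (1.32 to 1.37). By contrast the ratio of Lcn2 to Lcn9 was 2.29 in WT (2.23 to 2.34) and 2.28 in KO (2.24 to 2.32), and that of Lcn6 to Lcn10 was 0.246 (0.222 to 0.272) and 0.241 (0.225 to 0.257). Of the 15 ratios between members, the WT and KO intervals lay apart for 5 of 5 with Lcn5 and for 6 of 10 without it, such as Lcn8 to Lcn10, at 6.69 in WT (6.42 to 6.98) and 5.46 in KO (5.31 to 5.62). The ratios with Lcn5 changed by 0.32 to 0.61 in size on the log2 scale, and those without it by 0.29 at most. By its main row the share of Lcn5 in the summed RPKM of the 6 was 16.0% in WT and 21.5% in KO.

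Differences are KO minus WT on the log2(RPKM + 1) scale. A gene counted as tested where either library reached 1 RPKM, and as called where the difference was 1 or more in size. By this rule 5 of the 6 lipocalins were called higher in KO and 0 lower, with a median difference of 1.14, where 2.77% of all 15000 tested genes were called higher and 22.1% lower, with a median of 0.05. Abundant genes were called higher more often: among the 750 genes with a mean at least that of Lcn6, 20.4% were called higher and 19.3% lower, with a median of 0.64. Summed over the 6 genes, with 1 row per gene, the level was 4802 RPKM in WT and 10660 RPKM in KO, a ratio of 2.22. This sum leaves out the second Lcn5 row, at 350 RPKM in WT and 1006 RPKM in KO.

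Lcn5 had the largest difference of the 6, 1.57, and its main transcript was 2.98-fold higher in KO (2.90 to 3.06). Of the 15000 tested genes, 25 had a larger one. They included the secreted caput genes Spinkl, Defb2 and Defb18, named after their values were seen, with differences of 3.76, 1.90 and 1.63. Among the 6 lipocalins, Lcn10 followed Lcn5 with 1.25, a ratio of 2.38 (2.28 to 2.49). Lcn6 had 1.20, a ratio of 2.33 (2.08 to 2.61). The intervals of Lcn10 and Lcn6 overlap.

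Lcn9 and Lcn2 gave nearly the same value, 1.08 and 1.07. The ratio was 2.11 for Lcn9 (2.06 to 2.16) and 2.11 for Lcn2 (2.07 to 2.14), the latter interval being taken from the smallest read total that fits its values, since 13 totals between 19518 and 28125 reads do so in WT. Lcn8 had the smallest difference, 0.96, and was not called; its ratio was 1.94 (1.90 to 1.99). The authors' deposited table gives a log2 fold change of 1.03 for Lcn8 and of 1.65 for the main transcript of Lcn5, and values between these for the other 4 genes. In the authors' deposited table the GFOLD value, a fold change shrunk by its counting error, was 0.99 for Lcn8 and 1.103 to 1.60 for the other 5.

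These differences rest on how the libraries are scaled. The caput secretory list, 30 genes for other secreted caput proteins with none of the 6 lipocalins in it, had a median difference of 1.17, and 19 of its 30 genes were called higher and 0 lower. Among its most abundant genes, the antimicrobial Spag11b was at 3007 RPKM in WT and 7241 RPKM in KO, and the sperm-binding defensin Defb20 at 2506 and 6589 RPKM. The 28 cytosolic ribosomal protein genes, a housekeeping list, had a median of 0.84, with all 28 above 0 and 3 called higher. Beside both lists, 2.77% of all tested genes were called higher and 22.1% lower. Among the 750 genes as abundant as Lcn6 or more, these shares were 20.4% and 19.3%. Against the summed level of the secretory list the 6 lipocalins, with 1 row per gene and so without the second Lcn5 row, came to 23.6% in WT and 22.2% in KO. Against the summed ribosomal protein level they came to 85.7% in WT and 108% in KO.

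With the median of the secretory list subtracted, the differences of Lcn2, Lcn8 and Lcn9 turned to -0.10, -0.21 and -0.09, those of Lcn6 and Lcn10 were 0.03 and 0.08, and that of Lcn5 was 0.40. With the ribosomal protein median subtracted, all 6 stayed above 0, from 0.11 for Lcn8 to 0.73 for Lcn5, and 0 of 6 were called. The order of the 6 differences is the same in each case, since 1 value is subtracted from all.

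**Figure D2:**
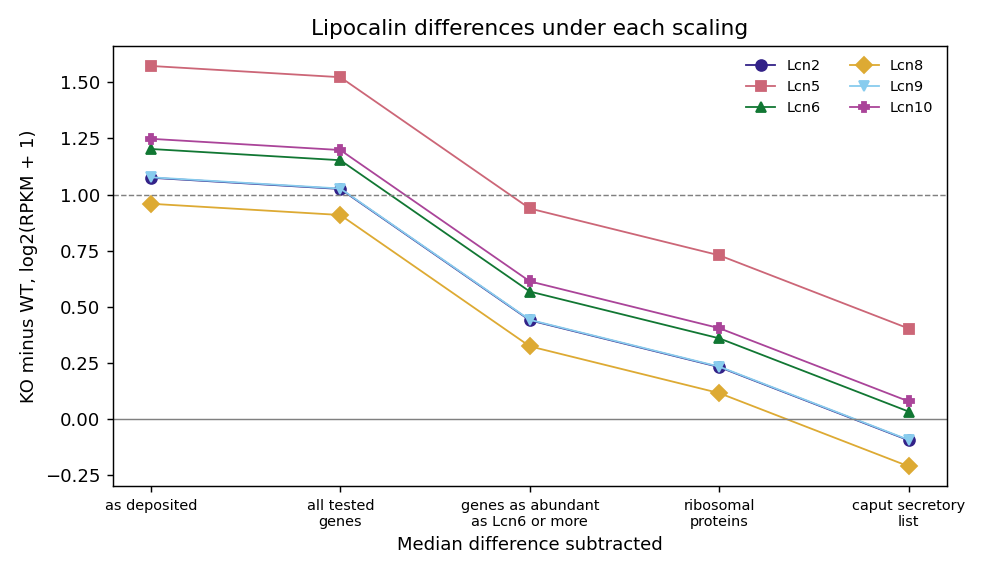
Differences of the 6 lipocalins (KO minus WT, log2(RPKM + 1)) as deposited and after subtracting the median difference of 4 gene sets, with 1 line per gene and a dashed line at the call of 1. Lcn5 is the highest line throughout, from 1.57 as deposited to 0.40 against the caput secretory list, where Lcn2, Lcn8 and Lcn9 lie below 0.

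Of the 6, 5 lie in 1 stretch of chromosome 2, and Lcn2 lies elsewhere on that chromosome. By the RefSeq gene order of GRCm38.p6, the protein-coding genes run Lcn8, Lcn5, Lcn6, Lcn10, Obp2a, Bmyc, Obp2b, Lcn3, Lcn11, Glt6d1, Lcn9. Obp2a, an odorant-binding lipocalin named Lcn13 in the files, was at 9.77 RPKM in WT and 20.2 RPKM in KO, a difference of 0.98 that was not called. Bmyc, a Myc-related gene in the same stretch, was at 30.2 and 63.3 RPKM, a difference of 1.04. Obp2b, Lcn3 and Lcn11 were under 1 RPKM in both libraries, so silent or nearly silent lipocalin genes lay between Lcn10 and Lcn9.

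The genes of the stretch that are no lipocalins did not all go the same way. Fcna, a ficolin gene before it, was at 9.15 RPKM in WT and 20.1 RPKM in KO. Glt6d1, just before Lcn9, was at 13.7 RPKM in WT and 0.592 RPKM in KO. Sohlh1, a germ cell transcription factor gene just after Lcn9, was at 2.11 RPKM in WT and listed at 0 in KO. Next to Lcn2, 1110008P14Rik was at 42.1 and 59.7 RPKM and Ptges2, a prostaglandin E synthase gene, at 5.07 and 7.32 RPKM, differences of 0.49 and 0.45 against 1.07 for Lcn2. Of the 6 tested genes of the stretch that are not members, 2 flanking genes on each side included, 2 were called higher and 2 lower, where 2.77% of all tested genes were called higher and 22.1% lower.

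**Figure D3:**
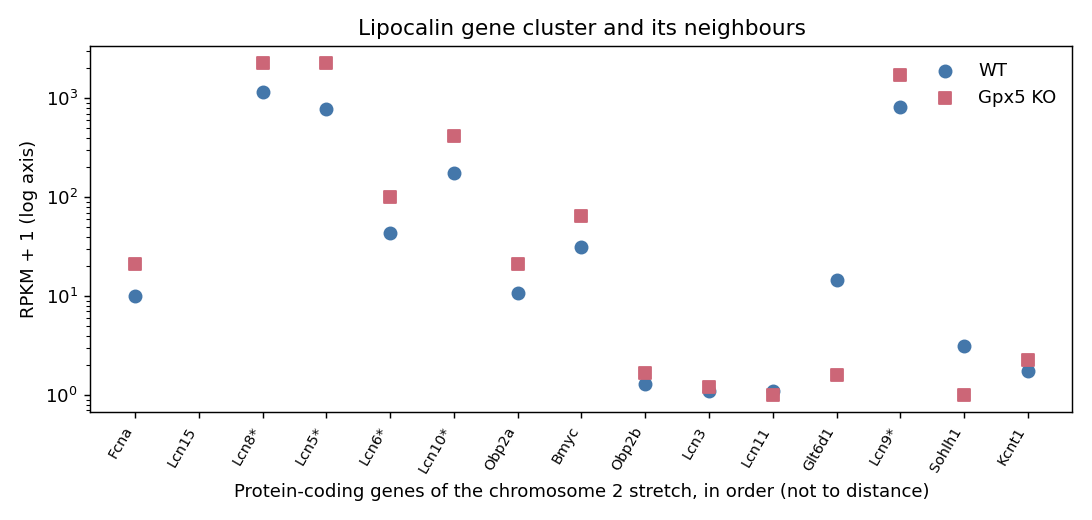
RPKM + 1 (log axis) in WT (blue circles) and Gpx5 KO (red squares), 1 library each, for the 15 protein-coding genes of the chromosome 2 stretch in their order along the chromosome; asterisks mark the 5 lipocalins described, and Lcn15 has no value in the table. Lcn8, Lcn5 and Lcn9 stand at 770 or more in both libraries, while Obp2b, Lcn3 and Lcn11 between them lie near 1.

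Since most members lie near each other on the chromosome, the 100 bases before each RefSeq start are shown. They are from GRCm38.p6, written 5′ to 3′ on the gene's own strand. Lcn2, which lies elsewhere, was higher in KO too, and the part of gene order or of these bases in the differences was not tested. The windows are chr2:25653018-25653117 on the plus strand for Lcn8, chr2:25657852-25657951 plus for Lcn5, chr2:25676686-25676785 plus for Lcn6, chr2:25682626-25682725 plus for Lcn10, chr2:25823053-25823152 plus for Lcn9 and chr2:32387740-32387839 minus for Lcn2. Capitals mark TATAAA or ATATAA, forms of the TATA box that places the start of transcription, and AGAACA, a core hexamer of steroid hormone response elements.
Lcn8: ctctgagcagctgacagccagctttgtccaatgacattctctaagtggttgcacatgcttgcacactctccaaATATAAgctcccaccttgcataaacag
Lcn5: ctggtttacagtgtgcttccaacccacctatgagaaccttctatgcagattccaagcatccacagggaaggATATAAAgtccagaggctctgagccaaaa
Lcn6: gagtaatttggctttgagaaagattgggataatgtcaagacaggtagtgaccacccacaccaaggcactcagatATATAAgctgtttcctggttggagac
Lcn10: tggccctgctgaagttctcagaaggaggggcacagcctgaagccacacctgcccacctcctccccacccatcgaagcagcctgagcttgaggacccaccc
Lcn9: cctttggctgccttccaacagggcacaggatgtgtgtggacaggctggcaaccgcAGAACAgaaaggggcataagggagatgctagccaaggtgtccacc
Lcn2: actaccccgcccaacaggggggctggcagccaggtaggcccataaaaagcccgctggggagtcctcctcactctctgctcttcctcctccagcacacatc

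Lcn8, Lcn5 and Lcn6, which stand in a row, share ATATAA at nearly the same place, with its first base at -27, -29 and -26 from the start. Searched on both strands over 250 bases before the start, ATATAA was in 3 of the 6 promoters and in 9.10% of all 32851 promoters of the table, and TATAAA, which overlaps it, was in 1 of the 6 and in 12.4% of all. AGAACA was in the promoters of Lcn6, Lcn9 and Lcn10, at -189, -45 and -163, and in 16.1% of all. TTNCNNAA, the pattern of C/EBP factors, was in 3 of the 6 (Lcn2, Lcn6 and Lcn8) and in 36.8% of all. The FOXA letters GTAAACA were in 0 of the 6 and in 3.17% of all, and the ETS letters AGGAAG in 1, Lcn2, where they came 3 times, and in 29.5% of all. The NF-kB consensus was in 1 of the 6, Lcn10, at -139 and so outside the printed bases, and in 7.25% of all. A match is a description of the letters and not a bound site. The GC content of the printed windows was 44% to 47% for Lcn6, Lcn8 and Lcn5 and 58% to 64% for Lcn9, Lcn2 and Lcn10.

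Of the other genes of the lipocalin superfamily, 20 of 22 listed were in the table and 6 had at least 1 RPKM. Of these 6, 2 were called higher and 0 lower, with a median of 0.83. The shares over all tested genes were 2.77% and 22.1%. Genes as abundant as Lcn6 or more were called higher in 20.4% of cases, with a median of 0.64. Ptgds, which encodes the lipocalin prostaglandin D synthase, was at 412 RPKM in WT and 627 RPKM in KO, a difference of 0.61. Lcn12, a further epididymal lipocalin, was at 199 and 506 RPKM, a difference of 1.34 and so between Lcn10 and Lcn5. Apod, the apolipoprotein of the family, was at 81.5 and 170 RPKM, a difference of 1.06. Mup4, a major urinary protein gene, was at 12.1 and 20.02 RPKM, a difference of 0.68. C8g, a complement subunit gene, went the other way, with 10.8 RPKM in WT and 6.71 RPKM in KO. The lipocalins that are abundant in this tissue were thus higher in KO to unequal degrees.

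Genes that handle the ligands of the lipocalins were described from lists chosen by function. For retinoids, the ligands bound by the Lcn5 protein, 14 of 21 genes were tested, 1 was called higher and 3 lower, and the median was -0.05, near the 22.1% called lower and the median of 0.05 over all tested genes. Aldh1a1, which makes retinoic acid, was at 175 RPKM in WT and 339 RPKM in KO, a difference of 0.95. Rdh11, a retinol dehydrogenase also expressed in testis, was at 80.9 and 24.5 RPKM and was called lower. The other 2 called lower, named after their values were seen, were Aldh1a2, another maker of retinoic acid, at 12.7 and 3.39 RPKM, and Crabp1, a retinoic acid carrier, at 1.79 and 0.291 RPKM.

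For siderophores, the ligands of the Lcn2 protein, and the iron they carry, 11 of 16 genes were tested, with all 11 above 0 and a median of 0.38. Of these 0 were called, where 2.77% of all tested genes were called higher and 22.1% lower. The ferritin light and heavy chain genes Ftl1 and Fth1 were at 335 and 126 RPKM in WT and 627 and 214 RPKM in KO. Transferrin, Trf, was at 31.9 and 53.7 RPKM. Slc22a17, the gene of an LCN2 receptor and named here after its values were seen, was at 6.23 and 8.39 RPKM, a difference of 0.38.

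Innate response genes known to rise with Lcn2 in inflamed tissue numbered 18, of which 9 were tested and 0 called, with a median of 0.32. With 2.77% of all tested genes called higher and 22.1% lower, 0 of so few genes says little. C3, the central complement gene, was at 27.8 RPKM in WT and 18.7 RPKM in KO. Stat3, a transcription factor of the acute phase response, was at 18.1 and 25.5 RPKM, and Nfkbia, the NF-kB inhibitor gene, at 14.7 and 17.6 RPKM. The 4 macrophage markers had a median difference of 0.19 and sums of 34.1 and 44.9 RPKM. On the log2(RPKM + 1) scale none of these genes reached the 1.07 of Lcn2. The nearest was the macrophage marker Cd68, at 4.98 RPKM in WT and 10.8 RPKM in KO, a difference of 0.98. The added 1 lowers the differences of genes at such low levels more than that of Lcn2, so the sizes are not strictly comparable. As a plain ratio of RPKM, the rise of Cd68 was slightly larger than that of Lcn2.

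For androgen and the transcription factors of caput lipocalin genes, 12 of 16 were tested, 1 was called higher and 0 lower, and the median was 0.60. Over all tested genes 2.77% were called higher and 22.1% lower, with a median of 0.05. Srd5a2, which makes dihydrotestosterone, was at 63.6 RPKM in WT and 135 RPKM in KO and was the 1 called. Hoxd8, a homeobox gene, was at 43.8 and 75.0 RPKM. The 4 under 1 RPKM were Foxa1, Foxa2, Foxa3 and Lhx1, named after their values were seen. Of a list of initial segment genes and genes of signalling by testicular luminal factors, 19 were tested, with a median of 0.71. Of these, 4 were called higher and 2 lower, where 2.77% of all tested genes were called higher and 22.1% lower. This list shares Adam7, Cst8 and Ros1 with the caput and initial segment markers, and Adam7 and Cst8 with the secretory list, and it holds the targeted gene, Gpx5, 1 of the 2 called lower. The other was Nell2, which encodes a luminal ligand made by germ cells of the testis, at 5.69 RPKM in WT and 0.149 RPKM in KO. The 4 called higher were Adam7, Adam28, Ovch2 and Ros1, the last being the gene of the NELL2 receptor in the initial segment, at 46.6 and 95.1 RPKM. Nell2, Adam28, Ovch2 and Ros1 were named after their values were seen.

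**Figure D4:**
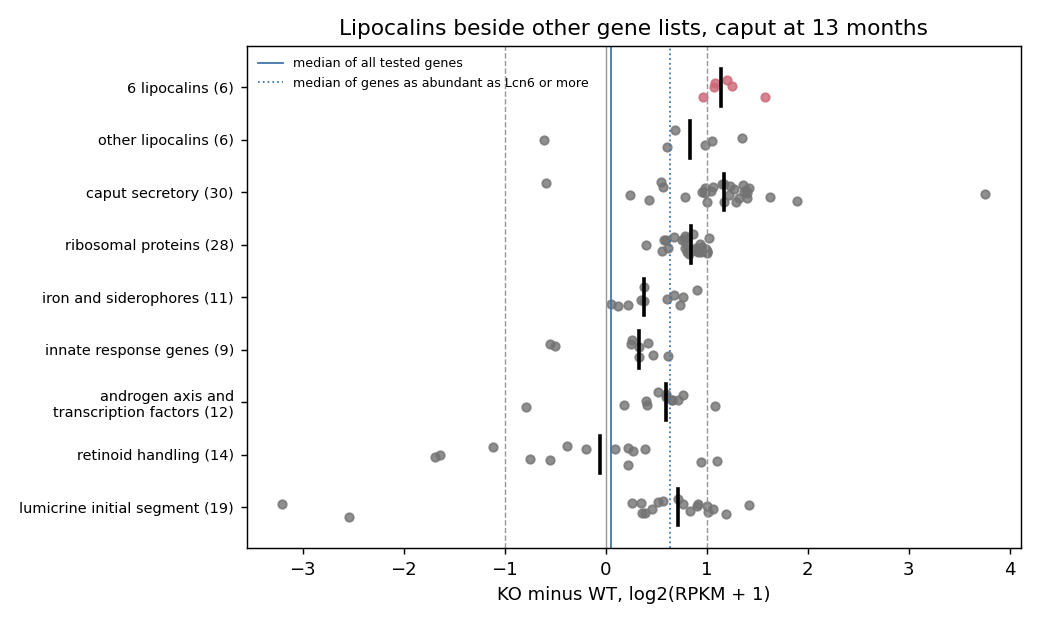
Differences (KO minus WT, log2(RPKM + 1)) of single genes in the 6 lipocalins (red) and in 8 other lists (grey), with the number of tested genes in brackets and a black bar at each median; blue lines mark the medians of all tested genes, 0.05, and of genes as abundant as Lcn6 or more, 0.64, and dashed lines the calls at 1 and -1. The lipocalin median of 1.14 lies beside that of the caput secretory list, 1.17.

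The genes whose pair of levels came closest to each member were found by distance on the log2(RPKM + 1) scale over the 2 libraries. For Lcn5 they were the defensin gene Defb42, at 923 RPKM in WT and 2317 RPKM in KO, and the epididymal ribonuclease gene Rnase9, at 989 and 2327 RPKM. Rnase10 and Tmsb4x came closest to Lcn8, Itm2b and 9230104L09Rik to Lcn2, Snord17 and Gm4846 to Lcn9, Rnf149 and Cyb561 to Lcn10, and Gm3867 and Klrb1a to Lcn6. The distances ran from 0.04 for Rnf149 to 0.36 for Rnase9. Lcn5 had the most distant neighbours of the 6.

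The small RNA libraries also held reads of 18 to 40 nt that the authors had matched to lipocalin mRNAs, and nearly all of them came from Lcn5 in caput at 13 months. Lcn5 had 407 such reads in WT and 501 in KO, or 29.4 reads per 1000000 classified reads (RPM; 26.6 to 32.4) and 27.3 RPM (24.9 to 29.8). The other 5 members together had 59 and 50 reads. The counts in WT and KO were 11 and 10 for Lcn2, 9 and 4 for Lcn6, 16 and 6 for Lcn8, 16 and 22 for Lcn9, and 7 and 8 for Lcn10.

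Lcn5 thus gave 87.3% of the lipocalin fragments in WT (84.0 to 90.2) and 90.9% in KO (88.2 to 93.2). Its main mRNA row held only 16.0% and 21.5% of the summed RPKM of the members. That share leaves out the other Lcn5 row, at 350 RPKM in WT and 1006 RPKM in KO, whereas fragments were counted over all RefSeq entries of Lcn5. Lcn2, the most abundant mRNA, gave 2.36% and 1.81% of the fragments. The fragments of Lcn5 lay on the plus strand in 406 of 407 and 500 of 501 reads, and 392 and 464 reads matched without a mismatch. They began with A in 73.2% of reads in WT and 76.6% in KO, and with T, the usual first base of piRNAs, in 8.35% and 10.8%. Lengths of 24 to 32 nt made up 40.0% and 51.9%.

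Many of these reads shared 1 first base, near the start of the mRNA. The most frequent start held 215 of 406 plus strand reads in WT and 193 of 500 in KO, and it lies at base 4 after the RefSeq start of Lcn5. The most abundant sequences of at most 30 nt are shown because both begin there, at chr2:25657955 of GRCm38.p6 on the plus strand, and differ only at the end; capitals mark the first 10 bases, by which starts were grouped.
Lcn5 fragment of 26 nt: ATGGCTTCTGgtggggagctgaaccc
Lcn5 fragment of 25 nt: ATGGCTTCTGgtggggagctgaacc
The fragment of 26 nt had 43 reads in caput WT and 79 in caput KO, 3 in corpus WT and 0 in the other 7 libraries. The fragment of 25 nt had 27 and 57 reads in caput and 0 elsewhere. A longer fragment of 33 nt with the same start had 73 reads in WT and 2 in KO, so the libraries shared the start and differed in how often each length came.

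The second start, with the first bases ATGGGGAAGC, held 12 reads in WT and 84 in KO. It ranked second on the reads of both libraries together and did so through KO, since 2 other starts had 14 reads each in WT, so its counts are a description only. As RPM the KO to WT ratio was 0.676 at the first start (0.554 to 0.825). Reads carry no molecular identifiers, so several reads of 1 sequence need not be several molecules. Identical sequences listed under entries of other names added 16 reads in WT and 37 in KO, not counted here.

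Whether Lcn5 fragments were higher or lower in KO depended on the base. As RPM the KO to WT ratio of Lcn5 was 0.927 (0.812 to 1.06), an interval that includes 1. With reads of the mRNA class as the base, Lcn5 had 854 in WT and 3233 in KO per 1000000 reads. The mRNA class itself made up 3.45% of classified reads in caput WT and 0.844% in caput KO; its part in these values was not tested. For the other 5 members summed, the ratio per classified read was 0.638 (0.429 to 0.946), in the direction opposite to their mRNA levels, and it turned with the mRNA class as the base.

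Outside caput at 13 months lipocalin fragments were few. Corpus held 28 Lcn5 reads in WT, or 0.964 RPM (0.640 to 1.39), and 3 in KO, or 0.359 RPM (0.0740 to 1.05). Caput exceeded corpus in Lcn5 fragments 30.5-fold in WT (20.8 to 46.5) and 76.0-fold in KO (25.9 to 370). Cauda held 0 Lcn5 reads in WT, which allows up to 0.183 RPM, and 1 in KO, and each testis library held 2. None of the 4 testis reads matched without a mismatch. The other 5 members had 0 to 2 reads in each of these 6 libraries.

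In caput at 2 months, where the pool size is not given, Lcn5 had 1 read in WT, or 0.259 RPM (0.00657 to 1.45), and 1 in KO, or 0.130 RPM (0.00330 to 0.726), and the other 5 members had 0. The mRNA class made up 0.0952% and 0.107% of classified reads there, against 3.45% and 0.844% at 13 months. Age and library composition therefore cannot be told apart in this comparison.

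**Figure D5:**
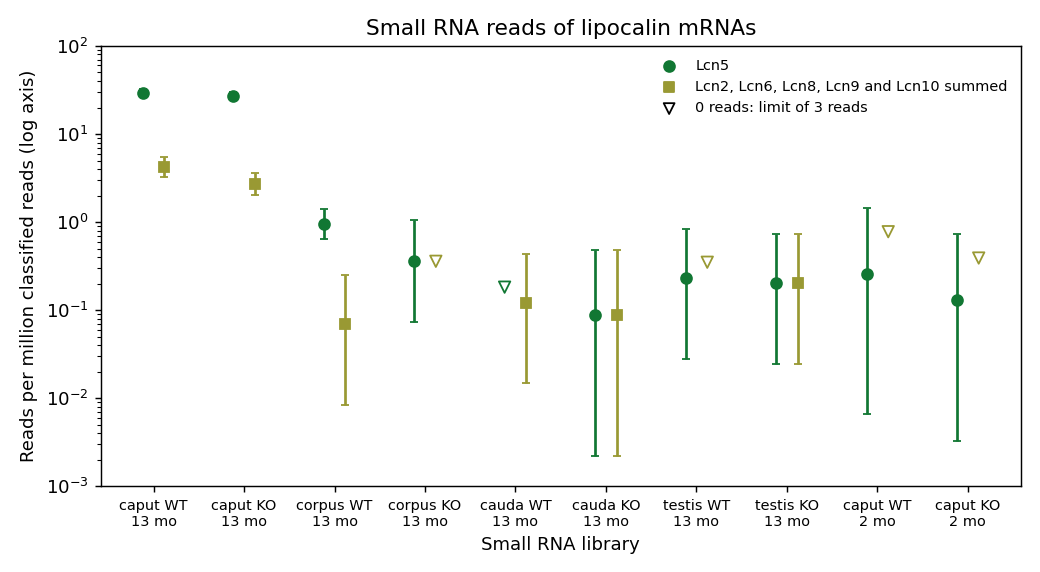
Small RNA reads matched to lipocalin mRNAs, per 1000000 classified reads (log axis), in the 10 libraries, for Lcn5 (green circles) and for the other 5 members summed (olive squares); bars are exact Poisson intervals at 95%, and open triangles mark 0 reads at the limit of 3 reads. The 2 caput libraries at 13 months stand apart, with Lcn5 at 29.4 and 27.3, and the points of the other 8 lie below 1.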

How the data were processed

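The authors deposited RPKM per RefSeq transcript, made with GFOLD 1.1.3 per the file headers, with a log2 fold change, a GFOLD value and an E-FDR (a p-value type column, deposited as 1 in all 28344 rows). Small RNA counts per distinct sequence were deposited with matched entries, up to 2 mismatches. TopHat2, Bowtie 0.12.7 and mm9 are named per the submitters' processing notes. The members and lists were chosen with earlier results of these data known.

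Each gene took its transcript with the highest mean RPKM, and 26880 accessions matched RefSeq. The deposited RPKM and fold changes together give the reads and length behind a row, within 0.1 reads, for 6 of the 7 member rows. Intervals were exact Poisson, Clopper-Pearson or conditional binomial (scipy 1.17.1), and a count of 0 was given the limit of 3 counts. Fragments were summed per gene over RefSeq mRNA entries, which held 43.7% of mRNA class reads in caput WT and 35.4% in caput KO at 13 months. Other GenBank entries were not used here. Scripts were tested on simulated data. Named genes were all members, Gpx5, the 4 most abundant genes of a list at most (6 for other lipocalins), the 2 nearest genes, chromosome neighbours and up to 2 sequences per member with at least 20 reads and at most 30 nt. The values of some list genes are not reported here. Promoters and fragment positions came from RefSeq (GRCm38.p6), in which all 6 members matched. Alternatives covered pseudocounts, filters, transcript sums, centring, the deposited columns, and the base, mismatches, strand and distinct sequences of fragments; centring on genes as abundant as Lcn6 or more and leaving out the most frequent start were chosen after seeing the data.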

Additional observations from a re-analysis of the deposited data

How the results depend on the processing

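The median difference of the 6 lipocalins, 1.14, was -0.030 centred on the caput secretory list, 0.30 centred on ribosomal proteins, 0.50 centred on genes as abundant as Lcn6 or more, and 1.22 with the fold changes on the log2 scale given in the authors' deposited table; the first 3 subtract a positive value. The count called higher, 5, was 0 under each of these 3 centrings, while it was 5 or 6 and the count called lower 0 under every other setting. Lcn2, Lcn8 and Lcn9 turned to -0.096, -0.21 and -0.094 against the secretory list. Of the 15000 tested genes 415 were higher and 3321 lower as deposited, 7 and 8489 against the secretory list, 13 and 6197 against ribosomal proteins, and 19 and 5199 against the abundant genes. The log2 KO to WT ratio of caput Lcn5 fragments, -0.11, was 1.92 with the mRNA class as the base and 0.27 without the most frequent start. That of the other 5 members, -0.65, was 1.38 with the mRNA class as the base. The cause was not tested. Reads without a mismatch, the plus strand and distinct sequences left both ratios within their counting intervals. No paired analysis was possible because each group has 1 library. Depth limits the fragments of members other than Lcn5, with 4 to 22 reads each in caput at 13 months.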

Other observations

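Lcn12, an epididymal lipocalin outside the 6, had 18 small RNA reads in caput WT at 13 months, or 1.30 RPM (0.772 to 2.06), and 6 in caput KO, or 0.327 RPM (0.12 to 0.711). Its mRNA level was higher in KO, at 506 RPKM against 199 RPKM in WT. Like Lcn8, with 16 and 6 reads, it had fewer fragments per classified read in KO. With the mRNA class as the base the values were close, at 37.8 in WT and 38.7 in KO for Lcn12 and 33.6 and 38.7 for Lcn8, per 1000000 mRNA class reads.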
